A study of Mus musculus with 4 samples.

Results

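OAS, IFIT and other antiviral genes are a set of 10 interferon-induced genes, Oasl1, Oasl2, Oas2, Oas3, Rsad2, Ifit1, Ifit2, Ifit3, Isg15 and Mx1, described here in mouse haematopoietic stem cells with high and low N-myc. A gene was read from array probe sets whose platform annotation names it alone, and 9 of the 10 had at least 1, with 11 probe sets in all, among 18193 genes and 34945 such probe sets. Isg15 had only a probe set that also names another gene, so no level is given for it. Rsad2 had 3 probe sets, of which the one with the highest mean over the arrays stands for the gene, and each of the other 8 genes rested on 1.

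The cells came from the bone marrow of mice with a transgene, an N-myc fusion with the red fluorescent protein mCherry, and this fusion is shared by both groups. They were sorted as lineage-negative, Sca-1 and Kit positive, CD48-negative and CD150-positive cells and were neither cultured nor treated. mCherry divided them into N-myc high and N-myc low, with samples labelled mouse 1 and mouse 2 in each group, so 4 arrays were compared, 2 against 2. The strain, age and the promoter of the transgene are not given in the labels.

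Cells sense viral double-stranded RNA and DNA, secrete type I interferon, and the interferon receptor then signals through JAK kinases to a complex that holds STAT2 and IRF9. That complex binds a motif called the interferon-stimulated response element (ISRE) and switches on genes such as those described here. OAS enzymes make short 2'-5' linked oligoadenylates that lead to the breakdown of RNA. Some IFIT proteins bind foreign RNA ends, and viperin, the product of Rsad2, makes a chain-terminating nucleotide. Stem cells are known to hold part of this programme at a basal level without infection, and interferon can push dormant stem cells into cycle.

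The sequence around each gene's start was searched for motifs of interferon signalling. RefSeq windows (GRCm38.p6, 250 bases before to 50 after a transcript start, 300 bases in all) were found for 8 of the 10 genes, with 2 windows for Ifit2 and none for Oas2 and Mx1. They were searched on both strands for the ISRE core, which is GAAA, any 2 bases and GAAA again, with overlapping matches counted. The core was present in windows of 5 of the 8 genes, Oas3, Rsad2, Ifit1, Ifit3 and Isg15, against 3.99% of 27025 genes with a window (3.44% of 32851 windows). Ifit1 and Ifit3 held 2 matches each, and Isg15 held 3 that overlap one another. The windows of Oasl1, Oasl2 and Ifit2 held none. The motif TTC, any 3 bases and GAA, the GAS element of interferon gamma signalling, was found in 1 member, Ifit2, against 9.55% of genes. A match is a string of letters and not a measured site, and its absence says only that these letters are not in this window.

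The windows below show Oasl1, the member with the largest difference between the groups, beside 3 members that hold the core. Ifit1 and Isg15, which also hold it, are not printed, nor are Oasl2 and Ifit2, which do not. Over all measured members with a window, differences lay on both sides of 0 with and without the core, as given further below. Capitals mark the ISRE core. They lie at chr5:114922990-114923289 (plus strand) for Oasl1, chr5:120777610-120777909 (minus strand) for Oas3, chr12:26456403-26456702 (minus strand) for Rsad2 and chr19:34583279-34583578 (plus strand) for Ifit3. Each is written 5' to 3' on the gene's strand.
Oasl1: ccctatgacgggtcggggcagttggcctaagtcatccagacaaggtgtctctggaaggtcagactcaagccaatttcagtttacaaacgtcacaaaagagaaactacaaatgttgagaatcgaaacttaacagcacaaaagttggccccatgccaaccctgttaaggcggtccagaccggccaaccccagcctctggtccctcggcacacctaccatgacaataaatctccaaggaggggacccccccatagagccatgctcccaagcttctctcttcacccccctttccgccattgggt
Oas3: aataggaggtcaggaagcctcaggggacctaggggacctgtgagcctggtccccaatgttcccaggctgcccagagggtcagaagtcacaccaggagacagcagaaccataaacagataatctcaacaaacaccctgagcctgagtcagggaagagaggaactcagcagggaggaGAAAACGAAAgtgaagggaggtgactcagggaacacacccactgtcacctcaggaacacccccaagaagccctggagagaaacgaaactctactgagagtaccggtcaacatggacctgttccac
Rsad2: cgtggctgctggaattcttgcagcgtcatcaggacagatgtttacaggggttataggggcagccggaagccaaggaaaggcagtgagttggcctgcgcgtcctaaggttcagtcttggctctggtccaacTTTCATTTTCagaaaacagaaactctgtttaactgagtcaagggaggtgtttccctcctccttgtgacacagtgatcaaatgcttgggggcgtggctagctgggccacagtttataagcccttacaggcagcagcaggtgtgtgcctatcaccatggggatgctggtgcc
Ifit3: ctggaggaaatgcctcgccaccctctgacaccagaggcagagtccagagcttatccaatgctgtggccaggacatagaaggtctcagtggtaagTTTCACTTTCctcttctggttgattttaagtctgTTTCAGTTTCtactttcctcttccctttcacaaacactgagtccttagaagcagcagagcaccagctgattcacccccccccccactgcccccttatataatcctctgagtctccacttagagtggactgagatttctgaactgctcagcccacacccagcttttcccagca

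**Figure D1:**
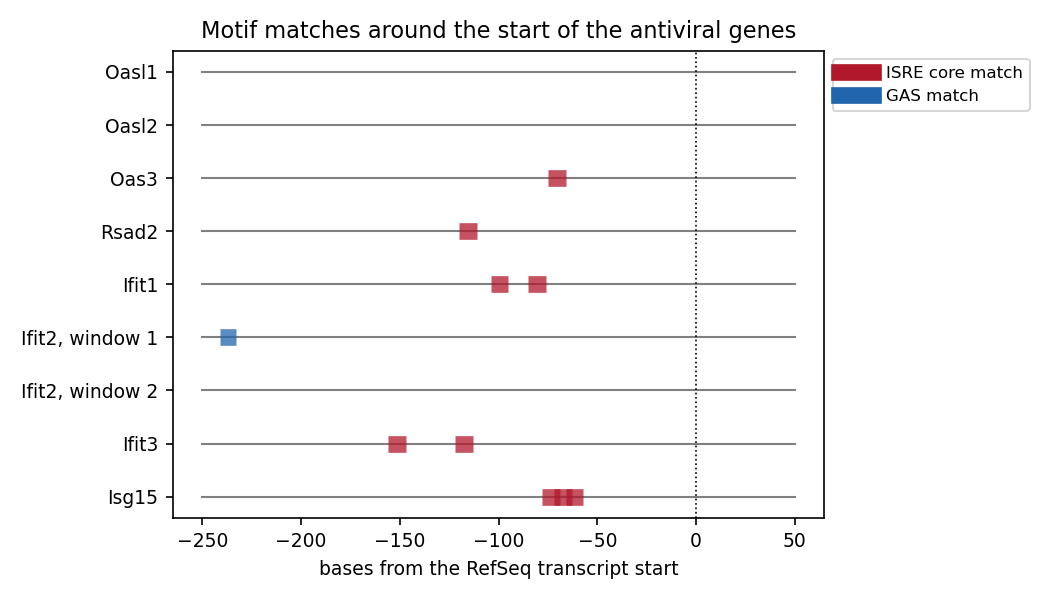
Matches to the ISRE core (red) and the GAS motif (blue) in the 9 RefSeq windows of 8 antiviral genes, by distance in bases from the transcript start (0). Oasl1 and Oasl2 have no match to either motif, and the ISRE matches of the other genes lie between positions -156 and -57.

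In the RefSeq gene table Oasl2 and Oasl1 are next to each other on chromosome 5, with 0 protein-coding genes between them, and so are Oas2 and Oas3 elsewhere on that chromosome. Ifit2, Ifit3 and Ifit1 share a cluster on chromosome 19, and Rsad2 lies on chromosome 12 beside Cmpk2. Mx1 and its relative Mx2, on chromosome 16, are listed as transcribed pseudogenes in this assembly of the C57BL/6J strain, which like many inbred laboratory strains carries defective Mx genes.

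All levels are log2 probe set intensities as deposited, and differences are N-myc high minus N-myc low on that scale, with the standard error (SE) of a limma fit over all genes. Levels of different probe sets cannot be set against each other, since probes differ in affinity. Fewer cells with a transcript and less transcript per cell cannot be told apart in such bulk samples. The replicates are 2 labelled mice. The limma p-values rest on the spread between these samples, with each gene's own spread drawn towards a value pooled over all genes. Over all 18193 genes, 0 genes (0%) reached the threshold of 0.05 for limma's adjusted p, so 0 of the 9 members did, and 1148 genes had an unadjusted p under 0.05 in limma. No difference below is therefore a call, and what follows gives values.

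The arrays had medians of 5.26 to 5.32 over all probe sets, and the genes had a median difference of -0.03. Mycn, the gene behind the sort, was at 10.48 and 10.39 in the N-myc high arrays against 9.44 and 9.65 in the N-myc low ones (difference 0.89, SE 0.189). Both arrays labelled mouse 1 carried the X-inactivation RNA Xist (11.38 and 11.10, against 3.84 and 3.70 in mouse 2) together with the Y-linked Eif2s3y (8.53 and 8.43, against 9.40 and 9.67 in mouse 2). What that sample holds was not tested, so mouse 2 is given beside it for every member. The bioB and bioC hybridisation controls were at 11.67 in N-myc low mouse 2 and between 10.81 and 11.05 in the other 3 arrays. Stem cell genes were present in all arrays, with Kit between 10.17 and 10.53 and Slamf1, the gene for CD150, between 8.01 and 8.99. Of the T and NK cell genes, Cd3e and Cd3g lay between 2.50 and 3.29, while Nkg7 of the same list lay between 8.48 and 9.44. The neutrophil gene S100a8 lay between 13.22 and 13.42.

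Among the OAS family, Oasl1 stood apart. Its product binds double-stranded RNA but does not make oligoadenylates, and in mouse it is known to restrain translation of the Irf7 mRNA. Oasl1 was at 3.50 and 3.58 in N-myc high mouse 1 and 2, and at 5.00 and 5.43 in N-myc low mouse 1 and 2. Both N-myc high arrays lay below both N-myc low arrays, and the gap between the groups was larger than the spread within either. The difference was -1.68 (SE 0.225, 95% interval -2.28 to -1.08), a 3.21-fold lower intensity in N-myc high. It was -1.51 in mouse 1 and -1.86 in mouse 2. Its unadjusted p of 0.00106 in limma ranked 23 among all genes, and the adjusted p was 0.744. Leaving out each array in turn gave differences between -1.90 and -1.47. The probe set is a dim one. The 25th percentile of all probe sets was 3.48 and 3.55 on the N-myc high arrays, close to Oasl1 there, and no detection call was used here, so how far the lower level lies above background was not tested.

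Oasl2, the neighbour of Oasl1, encodes the related protein that does keep the synthetase activity in mouse. It was at 8.34 and 8.55 in the N-myc high arrays against 8.75 and 8.21 in the N-myc low ones. The groups overlapped, with N-myc low mouse 1 the highest array and N-myc low mouse 2 the lowest. The difference was -0.03 (SE 0.259), and it had opposite signs in the mice, -0.41 in mouse 1 and 0.35 in mouse 2. The 95% interval of -0.72 to 0.66 leaves room for a change in either direction.

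Oas2, a synthetase gene between Oas1 and Oas3 in the size of its product, was at 6.79 and 6.69 in the N-myc high arrays against 7.26 and 6.76 in the N-myc low ones. It was lower in N-myc high in both mice, by a difference of -0.47 in mouse 1 and -0.07 in mouse 2, but N-myc high mouse 1 exceeded N-myc low mouse 2 and the groups overlapped. The fitted difference was -0.27 (SE 0.243, adjusted p = 0.861 in limma).

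Oas3, the largest synthetase of the family and a sensor of long double-stranded RNA, was at 6.30 and 6.53 in the N-myc high arrays against 6.49 and 4.70 in the N-myc low ones. Only N-myc low mouse 2 was far from the others. The difference was 0.82 (SE 0.624), made up of -0.19 in mouse 1 and 1.83 in mouse 2, and it was -0.074 without N-myc low mouse 2, the array whose hybridisation controls were highest. The part of the hybridisation controls in this value was not tested.

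Set against its family within each array, Oasl1 minus the mean of Oasl2, Oas2 and Oas3 was -3.65 and -3.68 in the N-myc high arrays against -2.50 and -1.12 in the N-myc low ones. These values carry the affinities of the probes, so only their difference between the groups can be read. That difference was -1.85, with -1.15 in mouse 1 and -2.56 in mouse 2. The exact permutation test over the 4 arrays gave a two-sided p of 0.333, the smallest that 2 against 2 arrays allow. Without N-myc low mouse 2 the difference was -1.17, and without N-myc low mouse 1 it was -2.54, so the size depended on the N-myc low array used. Since the groups did not overlap in this value, leaving out an array could not turn its sign. Against single relatives, the difference was -1.65 for Oasl2, -1.41 for Oas2 and -2.50 for Oas3, each negative in both mice. The family mean alone differed by 0.17 between the groups.

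**Figure D2:**
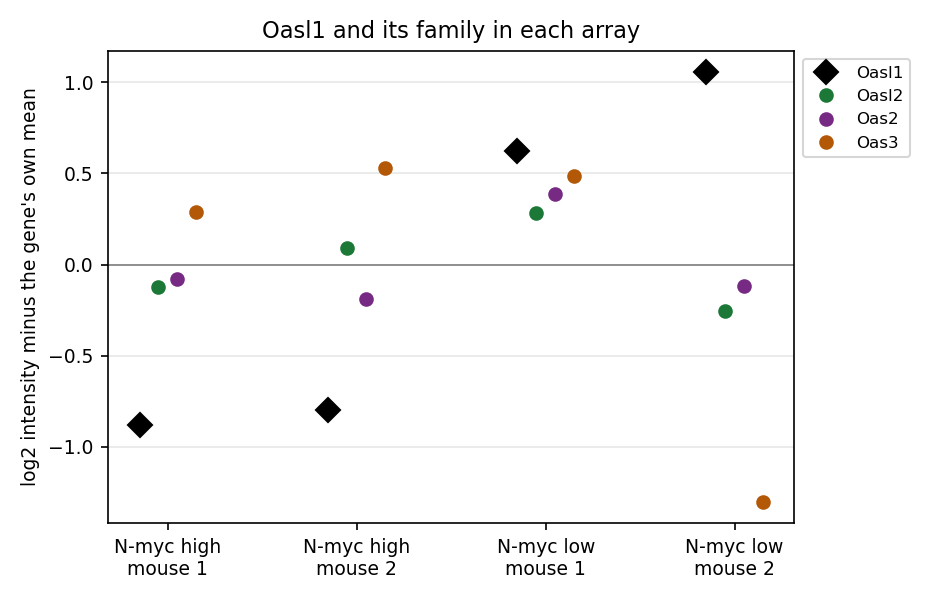
Log2 intensity of Oasl1 (black diamonds) and its relatives Oasl2, Oas2 and Oas3 (circles) in each of the 4 arrays, each gene centred on its own mean over the arrays. Oasl1 is the lowest of the 4 genes in both N-myc high arrays and the highest in both N-myc low arrays, and Oas3 is far below its mean in N-myc low mouse 2 only.

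By Euclidean distance between centred profiles, the 3 closest of 18192 genes were Cd69, an early activation antigen of leukocytes (distance 0.391), the noncoding RNA gene Dleu2 (0.411) and 1110020A21Rik (0.461). Cd69 was at 5.44 and 5.65 in the N-myc high arrays against 6.95 and 6.98 in the N-myc low ones. The other 2 probe sets of Dleu2 had the opposite sign. The other 8 members ranked between 5016 (Oas2) and 17871 (Oas3) by this distance. It rests on 4 arrays and is a description, set largely by the size of the Oasl1 difference, since a gene with the same value on every array would lie at 1.71.

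Rsad2, the gene for viperin, had the largest difference in the opposite direction whose groups did not overlap. Its brightest probe set was at 7.22 and 7.40 in the N-myc high arrays against 6.70 and 6.45 in the N-myc low ones, so both N-myc high arrays were the higher. The difference was 0.73 (SE 0.202, 95% interval 0.20 to 1.27), a 1.66-fold higher intensity, with 0.51 in mouse 1 and 0.96 in mouse 2. The unadjusted p was 0.0180 and the adjusted p 0.769 in limma. The other 2 probe sets of Rsad2 were dimmer and did not repeat this separation. The first was at 5.44 and 4.30 in the N-myc high arrays against 4.41 and 4.74 in the N-myc low ones (difference 0.30, SE 0.441), with opposite signs in the mice. The second was at 3.87 and 2.90 in the N-myc high arrays against 3.98 and 2.50 in the N-myc low ones (difference 0.15, SE 0.625), and its arrays followed the mouse label more than the fraction. The mean of the 3 probe sets differed by 0.39, and its arrays overlapped between the groups. Cmpk2, the neighbour of Rsad2, was at 6.11 and 5.42 in the N-myc high arrays against 4.62 and 6.33 in the N-myc low ones, and its groups overlapped.

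**Figure D3:**
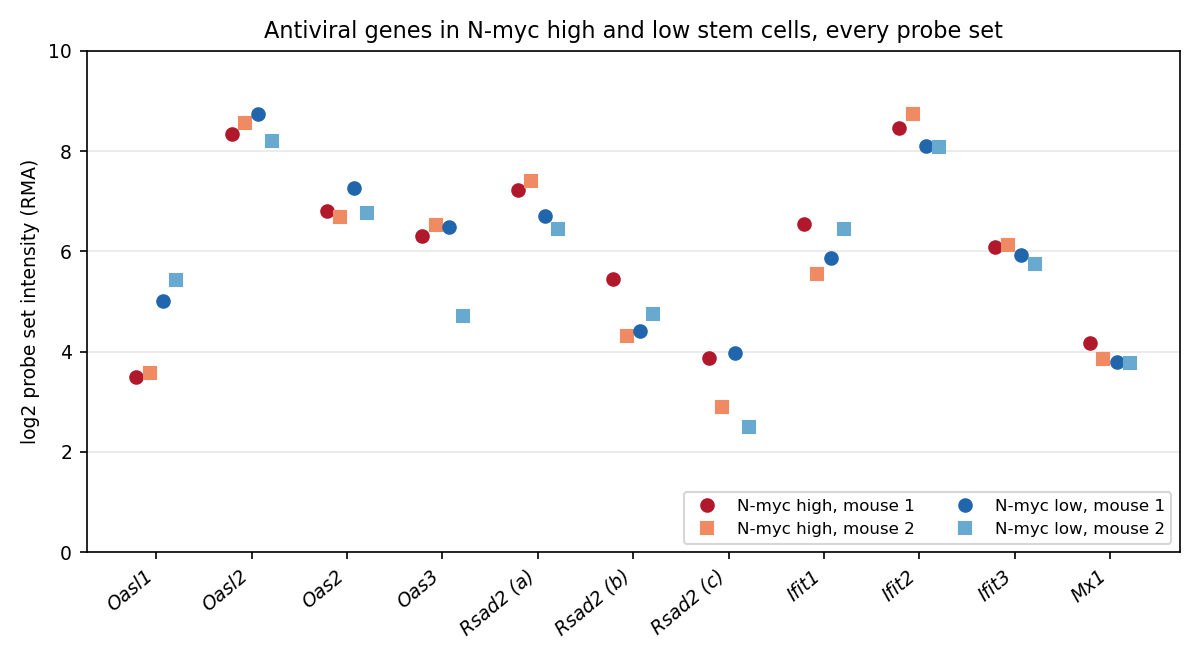
Log2 intensity of all 11 probe sets of 9 antiviral genes in the 4 arrays, N-myc high in red shades and N-myc low in blue shades, with circles for mouse 1 and squares for mouse 2. For Rsad2, a is the probe set that stands for the gene and b and c are the dimmer ones. The N-myc high points lie below the N-myc low points for Oasl1 and above them for Rsad2 (a), Ifit2, Ifit3 and Mx1.

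Some IFIT proteins, such as the product of Ifit1, bind the 5' ends of foreign RNA and block its translation. Ifit2 was at 8.46 and 8.73 in the N-myc high arrays against 8.10 and 8.08 in the N-myc low ones, so the groups did not overlap. The difference was 0.50 (SE 0.195, 95% interval -0.02 to 1.02), with 0.35 in mouse 1 and 0.65 in mouse 2. Ifit3, whose human counterpart stabilises IFIT1 on RNA, was at 6.09 and 6.12 in the N-myc high arrays against 5.92 and 5.74 in the N-myc low ones. Its groups did not overlap either, but the difference of 0.27 (SE 0.182) had a 95% interval of -0.21 to 0.76.

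Ifit1, the member that recognises RNA caps lacking a methyl group, was at 6.55 and 5.55 in the N-myc high arrays against 5.86 and 6.44 in the N-myc low ones. The highest and the lowest array were both N-myc high, and the difference was 0.69 in mouse 1 and -0.90 in mouse 2. The fitted value was -0.10 (SE 0.423), with a 95% interval of -1.23 to 1.02 that holds the values of Ifit2 and Ifit3.

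Mx1, a dynamin-like GTPase gene that protects against influenza where it is intact, was dim, at 4.17 and 3.84 in the N-myc high arrays against 3.80 and 3.77 in the N-myc low ones. Both N-myc high arrays were the higher, by a margin of under 0.1 between N-myc high mouse 2 and the nearer N-myc low array. The difference was 0.22 (SE 0.203).

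**Figure D4:**
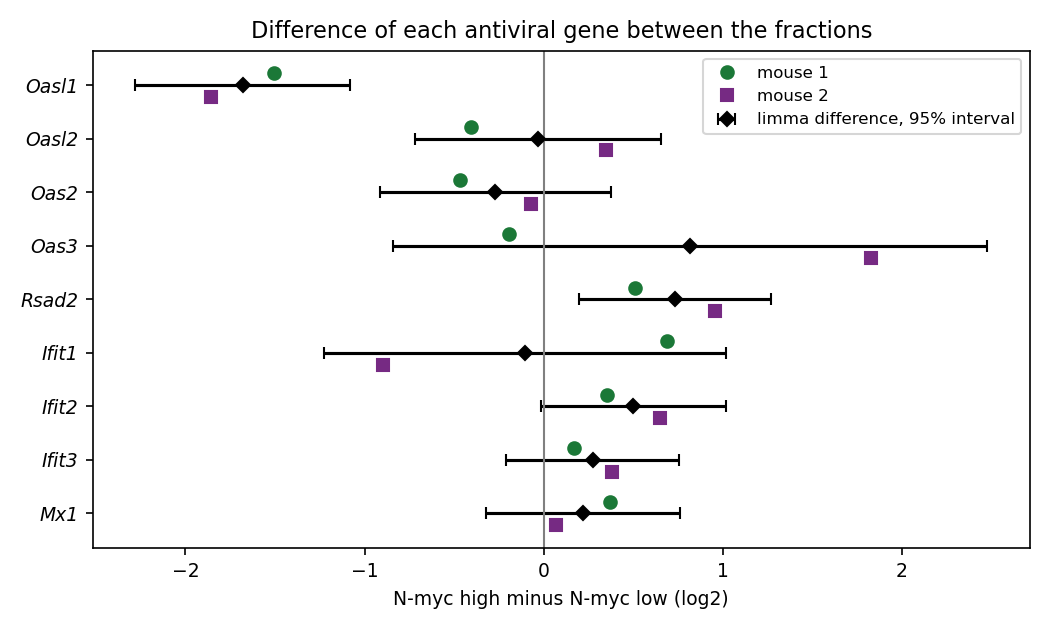
N-myc high minus N-myc low on the log2 scale for each of the 9 measured antiviral genes, as the limma difference with its 95% interval (diamonds) and within mouse 1 (circles) and mouse 2 (squares). The interval lies wholly below 0 for Oasl1 and wholly above 0 for Rsad2, and it includes 0 for the other 7 genes.

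Counted together, 1 member, Rsad2, was higher at an unadjusted p under 0.05 in limma, where 3.53% of all genes were, and 1 member, Oasl1, was lower, where 2.78% were. Of the 9 measured members, 4 were higher in N-myc high in both mice (Rsad2, Ifit2, Ifit3 and Mx1), against 23.2% of all genes, and 2 were lower in both mice (Oasl1 and Oas2), against 29.7%. The arrays of the groups did not overlap for 4 members that were higher (15.6% of all genes) and 1 that was lower (20.8% of all genes). With each array centred on its median the counts were 4 higher (12.4% of all genes) and 2 lower (26.4%), since Oas2 joined Oasl1. The members share 1 pathway and neighbouring loci, so they are not independent, and these shares of 9 genes have no test. The median difference of the 9 members was 0.22, with 0.17 in mouse 1 and 0.35 in mouse 2, against -0.03 over all genes. With an array left out the median ran from 0.076 (without N-myc high mouse 1) to 0.36 (without N-myc high mouse 2). Without Oasl1 the median of the other 8 was 0.25. Members with the ISRE core and members without it lay on both sides of 0. Those with it had 0.82 (Oas3), 0.73 (Rsad2), 0.27 (Ifit3) and -0.10 (Ifit1), and those without it 0.50 (Ifit2), -0.03 (Oasl2) and -1.68 (Oasl1).

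The mice also differed from each other within a fraction. Mouse 1 minus mouse 2 was 1.00 for Ifit1 within N-myc high and -0.58 within N-myc low. For Oas3 it was -0.24 within N-myc high and 1.78 within N-myc low. For Oasl1 the mice differed by -0.08 within N-myc high and -0.43 within N-myc low, both smaller than its difference between the fractions.

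Markers of other cells also differed between the fractions in these arrays, and their part in the values of the antiviral genes was not tested. All 10 macrophage markers were measured, and their summed linear intensity was 820 to 841 in the N-myc high arrays against 436 to 552 in the N-myc low ones. The complement gene C1qb had the largest difference among them, 2.66 (8.24 and 8.48 against 5.76 and 5.64), and 5 of the 10 markers were higher and 1 lower in both of the mice. For this list and those below, the matching shares of all genes were 23.2% higher and 29.7% lower. The counts were not tested against these shares. Without C1qb the other 9 markers summed to 463 to 539 against 386 to 497, and the groups overlapped. All 7 markers of plasmacytoid dendritic cells, the main producers of type I interferon, were measured. Their sums overlapped (1071 to 1287 in N-myc high, 1190 to 1249 in N-myc low), and in both mice 4 were lower and 0 higher. Without Tcf4, which made up most of these sums, the groups did not overlap (141.7 to 163.3 against 169.6 to 182.8). Of 9 measured neutrophil and monocyte markers, 8 were lower and 0 higher in both of the mice, with sums of 30079 to 33767 in the N-myc high arrays against 36678 to 36799 in the N-myc low ones. The 6 measured markers of T and NK cells had sums of 410 to 432 in the N-myc high arrays against 630 to 760 in the N-myc low ones, and 2 were higher and 2 lower in both of the mice. Nkg7 made up most of these sums, and without it the other 5 summed to 54.4 to 58.2 against 66.7 to 74.9. The 2 lower markers, Gzmb and Nkg7, had differences of -0.87 and -0.77. The 2 higher ones, Cd3e and Cd3d, had smaller differences of 0.01 and 0.20. B cell markers, 6 measured, had sums of 398 to 495 in the N-myc high arrays against 272 to 317 in the N-myc low ones, again with 2 higher and 2 lower in both of the mice. Without Vpreb1, a gene of B cell precursors, the other 5 summed to 182 to 307 against 254 to 263, and the groups overlapped. The long-term stem cell list, 8 measured of 10, had sums of 6563 to 7871 in N-myc high arrays and 5903 to 6220 in N-myc low ones, and without Hlf or Mecom the sums overlapped. Of the 8 genes, 4 were higher and 2, Kit and Gata2, lower in both mice, and 4 were higher at an unadjusted p under 0.05 in limma, against 3.53% of all genes. By the same cut-off, 2 macrophage and 2 B cell markers were higher, and 0 of either list lower. For T and NK cells 2 markers were lower, as were 2 for neutrophils and monocytes, with 0 higher, against 2.78% of all genes lower. Of the plasmacytoid dendritic cell markers, 0 reached it. Sums are carried by the brightest markers. Intensities on this scale have no 0, so no marker can be called absent.

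The rest of the antiviral and interferon pathway gave the surroundings of these genes. Of 12 other OAS, IFIT and MX genes, 9 were measured, and 0 had an unadjusted p under 0.05 in either direction in limma. At this cut-off 3.53% of all genes were higher and 2.78% lower, shares that apply to each such count below. The counts were not tested against them. Their median difference was -0.05. Oas1a, a synthetase gene, was at 8.95 and 9.19 in the N-myc high arrays against 8.31 and 8.82 in the N-myc low ones (difference 0.50, SE 0.253). Oas1h, by contrast, was at 4.25 and 4.54 in the N-myc high arrays against 4.47 and 4.84 in the N-myc low ones. Ifit1bl1 and Ifit1bl2, relatives of Ifit1 in its cluster, gave 0.47 and -0.26, and the second probe set of Ifit1bl2 had the opposite sign.

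Among partners of OAS and other antiviral effectors, 13 of 14 genes were measured, with a median of 0.07. At an unadjusted p under 0.05 in limma, 1 was higher (3.53% of all genes) and 0 lower (2.78%). The higher gene was Ifitm1, of the membrane proteins that block virus entry, at 12.42 and 12.58 in the N-myc high arrays against 11.60 and 11.77 in the N-myc low ones (difference 0.81, SE 0.189, adjusted p = 0.762 in limma). Its relative Ifitm3 gave 0.47 (SE 0.198), and the Z-nucleic acid sensor gene Zbp1 gave 0.53 (SE 0.208), in both cases without overlap of the arrays.

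ISG15 is a ubiquitin-like protein, and the 5 genes of its conjugation had a median of 0.16. Ube2l6, the E2 enzyme of the pathway, was at 6.99 and 7.03 in the N-myc high arrays against 6.53 and 6.38 in the N-myc low ones (difference 0.56, SE 0.179). It was the 1 gene of the 5 with an unadjusted p under 0.05 in limma, where 3.53% of all genes were higher. Uba7, the E1 enzyme, gave 0.46 (SE 0.273). Usp18, which removes ISG15 and damps the receptor, gave 0.16 (SE 0.442), with arrays that followed the mouse label (5.75 and 5.58 in mouse 1, 4.87 and 4.73 in mouse 2).

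The 13 nucleic acid sensors and adaptors had a median of -0.11, with 0 genes at an unadjusted p under 0.05 in limma. The RNA sensor genes Ddx58, which encodes RIG-I, and Ifih1, which encodes MDA5, gave 0.54 (SE 0.230) and 0.49 (SE 0.283), without overlap of the arrays. The endosomal RNA receptor gene Tlr7 gave -1.28 (SE 0.726), a value that came mainly from N-myc low mouse 2 (7.19, with 4.71, 5.00 and 5.09 in the other arrays). Of 2 further probe sets of Tlr7, 1 gave -1.27 and 1 had the opposite sign, at 0.10. Mavs, the adaptor of RIG-I and MDA5, gave 1.00 (SE 0.769), with N-myc high mouse 2 at 9.10 and the other 3 arrays between 6.80 and 7.19.

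Of 16 interferon ligand genes, 10 were measured, with a median of -0.08. Ifnb1, the gene for interferon beta, was between 2.93 and 3.24 in all 4 arrays. Ifnz, an interferon zeta gene, was at 7.81 and 7.83 in the N-myc high arrays against 6.68 and 6.32 in the N-myc low ones (difference 1.31, SE 0.210, adjusted p = 0.744 in limma). It was the 1 ligand gene of the 10 with an unadjusted p under 0.05 in limma, where 3.53% of all genes were higher. Ifna5 and Ifna11 gave -0.42 and -0.40. Ligand genes of this family are close copies of each other, so a probe set may read more than the gene it names.

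The 12 measured genes of interferon receptors and signal transduction had a median of -0.03 and 0 at an unadjusted p under 0.05 in limma. The type I receptor genes Ifnar1 and Ifnar2 gave -0.15 (SE 0.198) and 0.11 (SE 0.257), and each had another probe set of opposite sign, at 1.73 for Ifnar1. Stat2 gave 0.19 (SE 0.224), and its other probe set had the opposite sign, at -0.07. Tyk2, Socs3 and Jak1, the genes of smallest p in this list, gave 0.31, -0.55 and -0.17. Tyk2 and Socs3 each had another probe set of opposite sign, and both further probe sets of Jak1 were positive, at 0.33 and 0.51.

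Interferon regulatory factors had a median of 0.11 over 8 measured genes, with 0 at an unadjusted p under 0.05 in limma. Irf7, whose mRNA Oasl1 is known to restrain at the level of translation, was at 5.46 and 5.82 in the N-myc high arrays against 5.35 and 5.64 in the N-myc low ones (difference 0.14, SE 0.232). Its arrays overlapped between the groups, and the arrays measure RNA and not protein. Irf9, the DNA-binding partner of STAT2, gave 0.07 (SE 0.253). Irf1 gave 0.36 (SE 0.228), Irf4 -0.26 and Irf8 -0.19.

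Other interferon-induced genes, 27 measured of 28, had a median of 0.23, and 12 of them were above 0 (23.2% of all genes were) and 3 below 0 (29.7%) in both of the mice. For limma's unadjusted p under 0.05, the counts were 0 higher (3.53% of all genes) and 1 lower (2.78%). That gene was Ifi27l2a, at 6.37 and 6.26 in the N-myc high arrays against 7.11 and 7.25 in the N-myc low ones (difference -0.87, SE 0.181, adjusted p = 0.762 in limma), which like Oasl1 was lower in both mice without overlap. Parp12, an antiviral ADP-ribosyltransferase gene, gave 0.57 (SE 0.276). Pml, of nuclear bodies, gave 0.51 (SE 0.225), but both of its further probe sets gave a negative value.

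**Figure D5:**
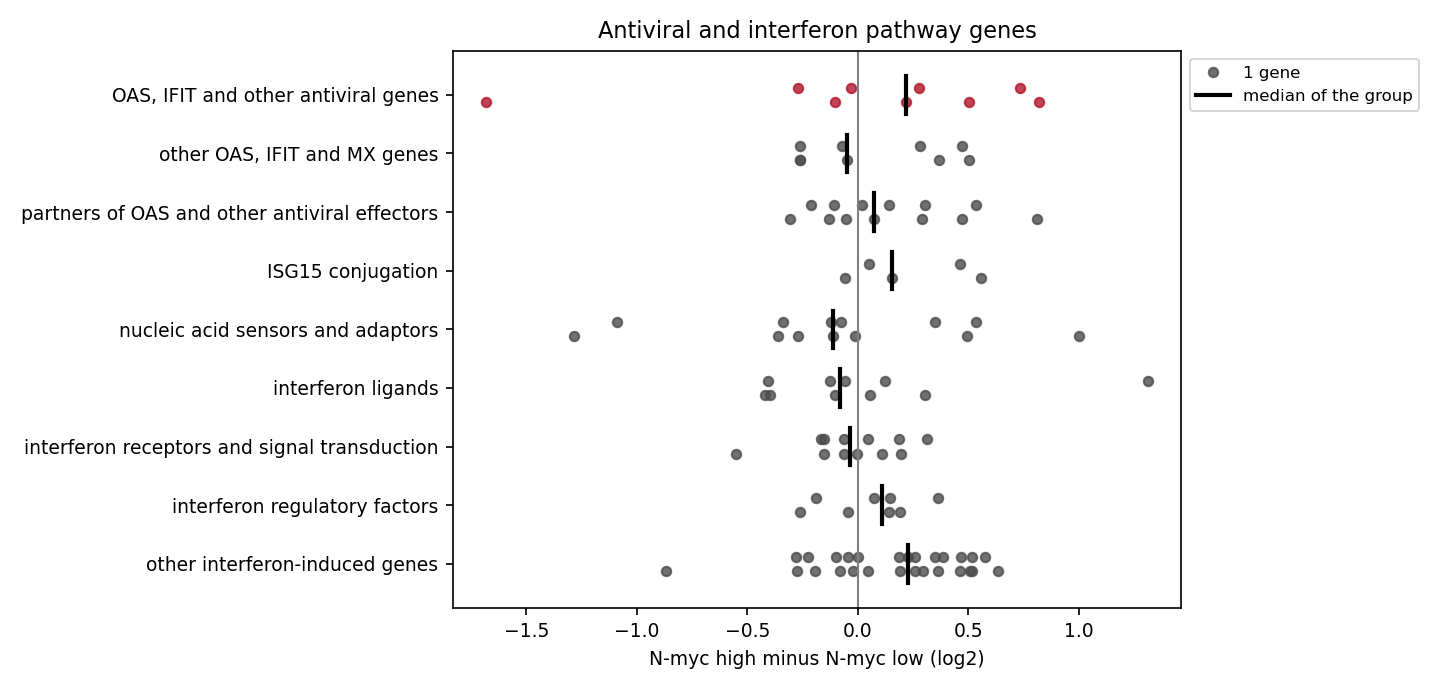
N-myc high minus N-myc low on the log2 scale for the 9 measured antiviral genes (red) and the measured genes of 8 pathway groups (grey), with the median of each group as a bar. The medians lie between -0.11 and 0.23, Oasl1 lies at -1.68 to the left, and Ifnz lies at 1.31 to the right.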

How the data were processed

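RNA of 4 samples was measured on Affymetrix mouse arrays. NuGEN Ovation reagents amplified and labelled 5 ng of RNA per sample, per the labels' protocols, and such amplification adds spread between arrays when a transcript is dim. The authors deposited log2 intensities, made with RMA (background correction, quantile normalisation, summary per probe set), with affy and limma also named, per the submitters' processing notes. A change common to every gene of an array is lost in RMA. The build and any filter: not given in the sources used here.

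Of 45101 probe sets, the platform annotation gave 34945 a single gene name, 932 several and 9160 none here, and 64 were controls. Their Entrez numbers were found in a RefSeq table (GRCm38.p6, used for names and neighbours) for 34741, with 0 symbols changed. The probe set with the highest mean stood for each of 18193 genes, without a filter. Groups were compared with limma 3.58.1 in R 4.3.3 (lmFit, eBayes, Benjamini-Hochberg adjustment over all genes), with a threshold of 0.05, and every probe set was fitted likewise over 34945. The code of the fit was checked on simulated data with known differences, independent normal errors and no mouse effect. Such a check does not show how well the fit suits these arrays. The number of arrays, 2 per group, limits the precision.

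The members and the gene lists were chosen with earlier results of these data known. Named genes were the members, Mycn, Stat2, Irf9, Irf7, Ifnar1, Ifnar2, Mavs and Usp18 whatever their values (other genes of that rule are not reported here), the 3 genes of smallest unadjusted p in each pathway list and the 3 closest to Oasl1. Others were chosen after their values were seen: Cmpk2, Oas1h, Ifnb1, C1qb, Tcf4, Nkg7, Gzmb, Vpreb1, Hlf, Mecom, Gata2, Kit, Slamf1, Cd3e, Cd3g, Cd3d, S100a8, Xist and Eif2s3y. The labels name the mouse, so arrays of the same number were paired for the differences given per mouse. The main limma fit and the permutation test did not use this pairing, which entered only an alternative fit. After subtraction of the group means, arrays of 1 mouse correlated at r = 0.0492 across genes. Alternatives were the mean of a gene's probe sets, the mouse as a replicate block, a filter on dim genes, array centring, another variance prior and each array left out.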

Additional observations from a re-analysis of the deposited data

How the results depend on the processing

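In each alternative run on all 4 arrays, 0 genes passed the adjusted threshold in limma. Wherever a value could be had, the differences of Oasl1, Oas2, Rsad2, Ifit2, Ifit3 and Mx1 kept their sign. For all of these but Oas2 the groups did not overlap, so leaving out an array could not turn the sign. The mouse block and the other variance prior leave each difference unchanged, so they could not turn it either. A fit with a replicate block for the mouse gave an unadjusted p of 0.00288 for Oasl1 (difference -1.68) and 0.0399 for Rsad2, and the block changed no call. The mean of its 3 probe sets gave Rsad2 0.39, with an unadjusted p of 0.251 in limma. With such means, the 1 member higher at an unadjusted p under 0.05 was Ifit2 (0.0409 in limma). Signs turned only with an array left out, over ranges of -0.30 to 0.24 for Oasl2, -0.074 to 1.71 for Oas3 and -0.61 to 0.40 for Ifit1. The median of the members ran from 0.076 (without N-myc high mouse 1) to 0.36 (without N-myc high mouse 2). Members higher at an unadjusted p under 0.05 numbered 0 with the intensity trend and robust prior and 0 to 2 with an array left out (0 without N-myc high mouse 2 or N-myc low mouse 2). Those lower numbered 0 among genes above the median level, a filter that removes Oasl1 and leaves its comparison with the family without a value, and that left 606 genes at this p, with fewer genes tested. Alternatives for members whose arrays do not overlap, and marker sums with a marker left out, were chosen after seeing the data. With array centring 2 were lower (Oasl1 and Oas2), where 26.4% of all genes were. With an array left out 4 to 6 were higher (28.1% to 32.7% of all genes) and 1 to 3 lower (34.3% to 38.8%), since fewer arrays overlap less often. With an array left out, 1 group is a single array, assumed to vary like the others. Dim probe sets, Oasl1, Mx1 and 2 of Rsad2, have no measured background here.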
